A study of Danio rerio with 26 samples.

Results

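Among the ATAC-seq peaks of early zebrafish embryos, those near the ends of the chromosomes were described here. The members were chosen by their measured positions: a consensus peak belonged to the set when its midpoint lay within 1 Mb of the start of the first peak or of the end of the last peak of chromosomes 1 to 25. This gave 1913 members among the 25521 peaks on these chromosomes, and among 25975 consensus peaks in all. The other 23608 peaks of the chromosomes are called inner peaks. The end with low coordinates is called the start side and the end with high coordinates the end side, so that there were 50 ends, with 973 members on start sides and 940 on end sides.

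The study followed chromatin accessibility during zygotic genome activation in zebrafish, when the embryo starts to transcribe its own genome. The peaks come from 17 wild-type libraries of whole embryos at the 256-cell (n = 2), high (n = 3), oblong (n = 3), sphere (n = 2), dome (n = 3), shield (n = 2) and 80% epiboly (n = 2) stages, with the yolk removed before tagmentation. They were called on the short fragments of nucleosome-free regions (NFR) against naked genomic DNA and then merged over the stages. The deposited list holds a chromosome, a start and an end on genome build Zv10, and nothing on signal, stage or library. The depth behind a peak is therefore unknown, no change between stages could be described, and there are no replicates to test over. Every comparison in this text is a description, and the spread given is that over ends, bins or chromosomes.

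In ATAC-seq, the Tn5 transposase cuts DNA that is not wrapped around nucleosomes. Such sites are typically promoters, where transcription starts, and enhancers, which are bound by transcription factors and act on genes at a distance. Chromosomes end in telomeres, repeated DNA that is covered by protective proteins. The subtelomeric DNA next to them often holds repeated and duplicated sequence, in which short reads are hard to place. The outermost peak is thus the outermost site where reads could be placed and a peak was called, and not the end of the DNA molecule. On start sides, it began between position 81 (chromosome 16) and position 129770 (chromosome 7), with a median of 8587, and on 13 of 25 chromosomes within 10 kb of position 1. The lengths of the Zv10 chromosomes were not used here, so the same distance is not given for end sides.

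The windows at the ends made up 3.73% of the 1339 Mb between the outermost peaks of the chromosomes and held 7.50% of the peaks. The ends had 38.3 ± 12.8 peaks per Mb (SD, n = 50 ends), with a lowest count of 14, a median of 39 and a highest of 66. Bins of 1 Mb further inside had 18.2 ± 8.72 peaks (SD, n = 1276 bins), a ratio of 2.1. The spreads overlapped, since 20 of the inner bins (1.57%) held at least as many peaks as the mean end and the densest held 70. Set against the inner density of its own chromosome, the median end was 1.94 times as dense. A total of 47 of 50 ends lay above that density, 24 were at 2 times or more and 6 at 3 times or more. These counts include the peak that sets each end. Without it, the mean was 37.3 peaks per Mb. The start side of chromosome 24 (1.02 times with it) would then lie below its inner density. Likewise, the end side of chromosome 6 (3.04 times with it) would lie below 3 times. Peaks covered 1.41% of the DNA in the end windows and 0.626% further inside. The set was proposed with the high density of the ends known, so these numbers describe the members and no test was made.

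The density was graded within the window. The first 100 kb from the outermost peak held 66.8 ± 33.6 peaks per Mb (SD, n = 50 ends), and 56.8 without the peak that sets the end and is always there. Without that peak, the first 100 kb held 65.6 peaks per Mb on start sides and 48.0 on end sides. The next 100 kb held 46.8 on start sides and 48.4 on end sides, so that on end sides the density was at the same level over the outer 200 kb. Over all 50 ends, the stretch from 100 to 200 kb held 47.6 ± 31.6 peaks per Mb, and the last 100 kb of the window 24.8 ± 23.7. These windows of 100 kb held few peaks each, so their spread was wide. All distances start at a peak by definition, also where that peak is not counted. Stretches measured from inner peaks were not computed for comparison. No peak was found between 100 and 200 kb at 4 ends and between 900 and 1000 kb at 11 ends. Of the members, 688 (36.0%) lay in the first 250 kb and 1183 (61.8%) in the first 500 kb, and the median member lay 386 kb from the end. More peaks lay in the first 500 kb than in the second at 38 ends, fewer at 10 and the same number at 2. Here the peak that sets the end was counted. Without it, the 2 ends with the same number, the start sides of chromosomes 17 and 23, would have fewer in the first 500 kb.

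**Figure D1:**
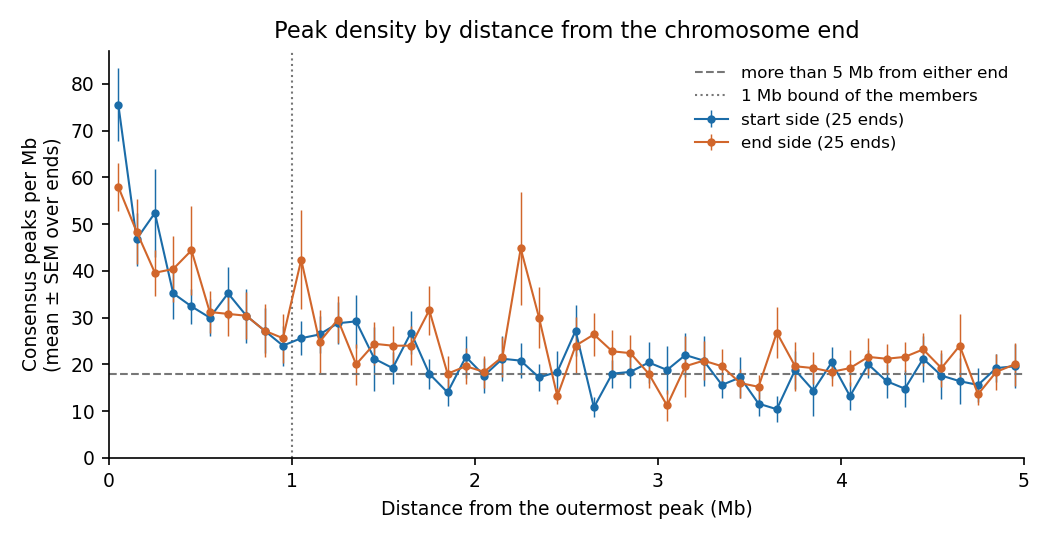
Mean number of consensus peaks per Mb (vertical axis, bars are SEM over 25 ends) in steps of 100 kb from the outermost peak (horizontal axis, Mb), for start sides in blue and end sides in orange. The first 100 kb shows 75.6 on start sides and 58.0 on end sides, of which the peak that sets the end gives 10, and the lines then near the dashed level of 17.9 peaks per Mb found more than 5 Mb from either end.

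Beyond the window, the density approached the inner level by steps. The second Mb held 24.5 ± 10.4 peaks (SD, n = 50 ends), the third 21.6 ± 10.1, the fourth 17.8 ± 7.95 and the fifth 18.8 ± 7.35, against 17.8 ± 8.70 in bins more than 5 Mb from either end (SD, n = 1076 bins). Counted against that deep level of their own chromosome, 47 of 50 ends were above it in the first Mb, 39 in the second, 33 in the third, 28 in the fourth and 25 in the next. The first Mb had more peaks than the second at 40 ends, fewer at 9 and as many at 1. These counts also include the peak that sets the end. Without it, the end side of chromosome 14 (24 in each Mb) would have fewer in the first. The end side of chromosome 18 (24 and 23) and the start side of chromosome 24 (18 and 17) would be tied. Chromosome 25 moved the means of the second Mb and of the third, because its end side held 55 and 63 peaks there and only 25 in the first Mb. Without chromosome 25, the successive steps of 1 Mb held 38.0, 23.9, 20.6, 17.9 and 18.8 peaks.

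Start sides and end sides had like densities, at 38.9 ± 14.5 and 37.6 ± 11.1 peaks per Mb (SD, n = 25 each). Start sides ranged from 14 to 66 and end sides from 16 to 63. The start side held more members on 11 chromosomes, the end side on 13, and on chromosome 17 both held 34. The ends of one chromosome could be far apart. The median difference between them was 11 peaks, and on 8 chromosomes it was 20 or more. The largest was on chromosome 4, with 66 members on the start side and 16 on the end side.

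**Figure D2:**
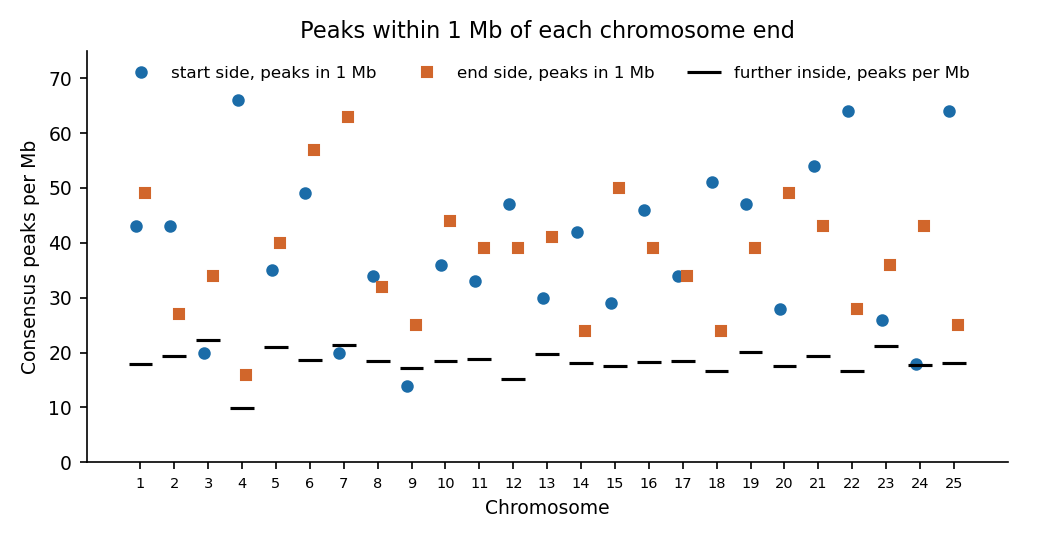
Number of consensus peaks within 1 Mb of each chromosome end (vertical axis, peaks per Mb) by chromosome (horizontal axis), with start sides as blue circles, end sides as orange squares and the density further inside the same chromosome as a black bar. The start sides of chromosomes 3, 7 and 9, at 20, 20 and 14, lie below their bar, and the start side of chromosome 24, at 18, lies close to it.

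The 5 ends with most members were the start sides of chromosomes 4 (66), 22 (64) and 25 (64) and the end sides of chromosomes 7 (63) and 6 (57). They did not share 1 profile. In the 4 successive steps of 250 kb from the end, chromosome 4 held 26, 11, 8 and 21 peaks, with the last step nearly as full as the first. Chromosome 22 held 20, 9, 21 and 14. Both thus had a second dense stretch away from the end. On the start side of chromosome 25, by contrast, the steps held 22, 24, 7 and 11 peaks, and most members lay in the outer 500 kb. The end side of chromosome 7 held 18, 26, 12 and 7, and that of chromosome 6 was the most even, with 14, 14, 11 and 18. The outermost peaks of these ends lay at 3612 to 3940 on chromosome 4, 44850 to 45077 on chromosome 22, 37525 to 38020 on chromosome 25, 74079798 to 74080052 on chromosome 7 and 60257823 to 60258282 on chromosome 6. Relative to the inner density of its chromosome, the start side of chromosome 4 stood highest, at 6.63 times, since that chromosome had the lowest inner density, of 9.96 peaks per Mb. Next in this ranking were the start sides of chromosome 22, at 3.84 times, and of chromosome 25, at 3.53 times.

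The 5 ends with fewest members were the start side of chromosome 9 (14), the end side of chromosome 4 (16) and the start sides of chromosomes 24 (18), 3 (20) and 7 (20). The start side of chromosome 9 was sparse near the end and fuller further in. Its steps of 250 kb held 3, 2, 3 and 6 peaks, and its second Mb held 37. The end side of chromosome 4 showed the opposite pattern, with 11, 3, 1 and 1 peaks and 9 in the second Mb. Its outer 11 members lay together from 76540125 to 76612692, and a stretch of 316 kb without a peak began at 75727097. The start side of chromosome 3 held 20 peaks in the first Mb, 33 in the second and 8 in the third, and that of chromosome 24 held 18, 17 and 32. The start side of chromosome 7 held 20, 15 and 6, and its first peak, at 129770 to 130075, began further from position 1 than that of any other chromosome. At the others, the outermost peaks lay at 1567 to 1766 on chromosome 9, 76612392 to 76612692 on chromosome 4, 345 to 691 on chromosome 24 and 387 to 729 on chromosome 3.

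Both ends were above 40 members on chromosomes 1 (43 and 49 on the start and the end side), 6 (49 and 57) and 21 (54 and 43). The chromosomes with the lowest mean of both ends were chromosome 9, with 19.5 peaks per Mb at the ends and 17.3 further inside, and chromosome 3, with 27.0 and 22.2. On every chromosome, the mean of both ends was above the inner density, by 1.13 times on chromosome 9 up to 4.12 times on chromosome 4. For chromosome 4, that inner density was 9.96 peaks per Mb and included sparse bins of 1 Mb, several of them without a peak. The bins without a peak on this chromosome all lay nearer to the end side than to the start side. The 4.12 times thus also rests on an average over a fuller and a sparse part. The share of a chromosome's peaks that lay in its end windows ran from 3.87% on chromosome 3 to 13.0% on chromosome 22, and the windows made up 3.21% and 5.12% of the length of these chromosomes.

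At the bound of the window, peaks lay close on either side. The members furthest in lay 999 kb from the end on the start side of chromosome 12 (1033898 to 1034210) and 998 kb from it on the start side of chromosome 8 (1000602 to 1000861). The nearest peaks outside lay at 1001 kb on the end side of chromosome 21 (44832871 to 44833238) and 1003 kb on the end side of chromosome 6 (59254904 to 59255203). The 5 members nearest the bound were 260 to 520 bp wide, and the 5 nearest peaks outside it 249 to 611 bp.

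Peaks near the ends had close neighbours more often. The gap, counted from the edge of a peak to the edge of the nearest other peak, had a median of 4.81 kb for members, with quartiles of 1.05 and 13.8 kb. For inner peaks, the quartiles were 2.04 and 27.5 kb around a median of 7.96 kb. The difference was largest among wide gaps. Of the members, 325 (17.0%) had no neighbour within 20 kb, against 31.6% of the inner peaks, and 68 (3.55%) had none within 50 kb, against 13.0%. At the other extreme, 279 members (14.6%) had a neighbour within 500 bp, against 9.14% of inner peaks. A neighbour within 5 kb was found for 967 members (50.5%) and for 41.2% of the inner peaks. By chromosome, this share was 49.6 ± 8.80% among members and 41.0 ± 2.52% among inner peaks (SD, n = 25 chromosomes). It was higher among members on 20 chromosomes and lower on 5, among them chromosome 3, where it was 27.8% against 43.5%. The ranges overlapped, from 27.8 to 65.9% among members and from 36.3 to 45.6% among inner peaks.

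The gaps followed the same grade as the density. The median gap was 3.01 kb in the first 100 kb, 3.50 kb from 100 to 250 kb, 4.10 kb from 250 to 500 kb and 6.57 kb from 500 to 1000 kb, as compared to 6.48 kb in the second Mb and 8.42 kb from 2 to 5 Mb. The 50 outermost peaks themselves had a neighbour on only 1 side, and their median gap was 13.0 kb. The widest of these gaps, 125 kb, followed the last peak of chromosome 12 inward. Long stretches without a peak were also found near the ends. Between successive peaks inside an end window, the longest gap had a median of 135 kb and exceeded 200 kb at 10 ends. It ran from 63.3 kb on the start side of chromosome 21 to 316 kb on the end side of chromosome 4. Empty stretches that reached the bound of the window were not counted, so the longest empty stretch could be longer. On the start sides of chromosomes 15 and 20 and the end side of chromosome 21, no peak lay from 700 to 1000 kb. In inner bins of the same length, the median of the longest gap was 219 kb (n = 1261 bins that held at least 2 peaks). Stretches that reached either bound of a bin were likewise not counted.

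**Figure D3:**
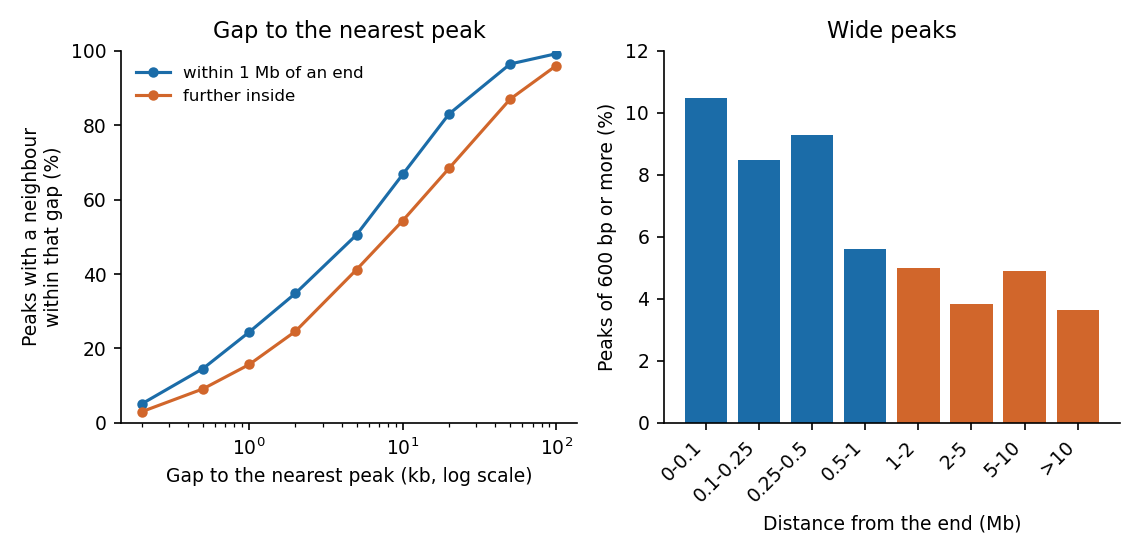
Left, share of peaks (vertical axis, %) with another peak within a given gap (horizontal axis, kb on a log scale), for members in blue and inner peaks in orange. The blue line is above the orange one at each gap plotted, with 50.5% against 41.2% at 5 kb. Right, share of peaks of 600 bp or more (vertical axis, %) by distance from the end (horizontal axis, Mb), with bands of the window in blue and bands further inside in orange. The share is 10.5% in the first 100 kb, 4.89% from 5 to 10 Mb and 3.63% beyond 10 Mb.

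Close groups were defined as 3 or more peaks with gaps of at most 2 kb between successive peaks. They held 242 members (12.7%) and 7.79% of the inner peaks. By chromosome, the shares were 12.1 ± 5.97% and 7.75 ± 1.99% (SD, n = 25), higher among members on 20 chromosomes and lower on 5. Chromosome 9 had no member in a close group, and chromosome 7 had the highest share, 26.5%. Another 424 members (22.2%) lay in pairs with a gap of at most 2 kb, against 16.8% of inner peaks. The 71 close groups with members were spread over 39 of the 50 ends. Of these groups, 53 had 3 peaks, 13 had 4, 4 had 5 and 1 had 11. Among members, groups of 4 or more were mostly in the outer 500 kb. They held 5.09% of the peaks in the first 100 kb, 8.47% from 100 to 250 kb and 6.46% from 250 to 500 kb. From 500 to 1000 kb, the share was 0.548%. It did not stay low further in, at 4.17% in the second Mb and 3.06% from 2 to 5 Mb. Of the 32 peaks behind the 6.46%, 16 belonged to the end side of chromosome 7. Without that end, the share from 250 to 500 kb was 3.41%, below that of the second Mb.

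The group of 11 peaks lay on the end side of chromosome 7, 441 kb from the last peak, and spanned 11.2 kb from 73627912 to 73639115. Its peaks were 200 to 1169 bp wide and 136 to 1254 bp apart. A group of 5 peaks, from 73598670 to 73604959, lay before it, with widths of 802, 1103, 515, 744 and 682 bp in order. The remaining groups of 5 peaks lay on the start sides of chromosomes 15 (122761 to 127860), 16 (66822 to 71619) and 25 (210341 to 215607). On chromosome 15, the peaks were narrow and of like width, from 276 to 341 bp. On chromosome 16, the third peak, of 932 bp, stood out from neighbours of 328 to 567 bp, and the first pair was only 162 bp apart. On chromosome 25, the widths ran from 350 to 680 bp and the gaps from 293 to 1048 bp.

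**Figure D4:**
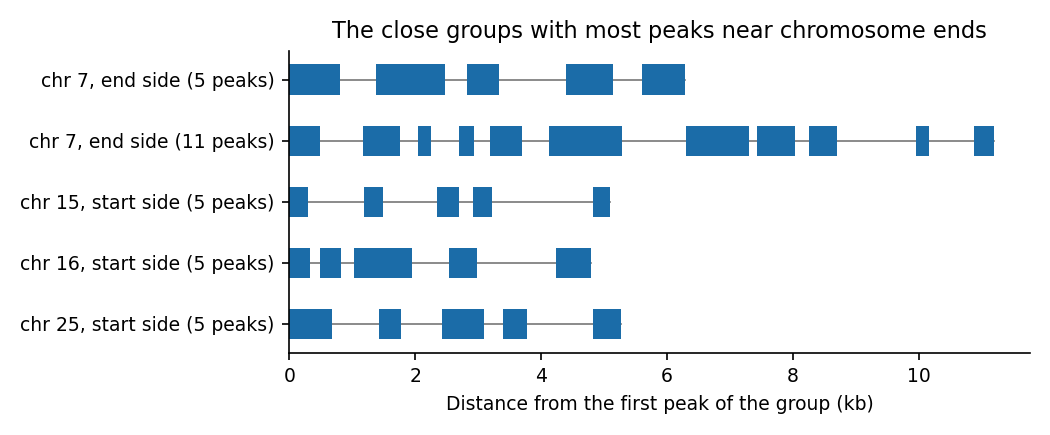
Close groups with 5 or more peaks near chromosome ends, drawn to scale from the first peak of each group (horizontal axis, kb), with each consensus peak as a blue block and 1 row per group. The group of 11 peaks on the end side of chromosome 7 spans 11.2 kb, and the 4 groups of 5 peaks span 4.80 to 6.29 kb.

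Among the 500 windows of 100 kb at the ends, the median held 3 peaks, 59 (11.8%) held none and 37 (7.40%) held 10 or more. Among 12760 windows further inside, the median was 1 peak, 31.4% held none and 0.948% held 10 or more. The densest inner window, with 35 peaks, held more than any at the ends. The densest at the ends was that of the chromosome 7 groups, from 73580053 to 73680052, with 24 peaks of a median width of 584.5 bp. It was followed by the start sides of chromosomes 4 (203612 to 303611) and 6 (204520 to 304519), with 14 peaks each. There were 5 windows with 13 peaks, on the end side of chromosome 10 and the start sides of chromosomes 14, 19, 22 and 25. Of these 8 windows, only those of chromosomes 19 and 22 touched the outermost peak, and the window from 200 to 300 kb was the densest on the start sides of chromosomes 4, 6 and 14.

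**Figure D5:**
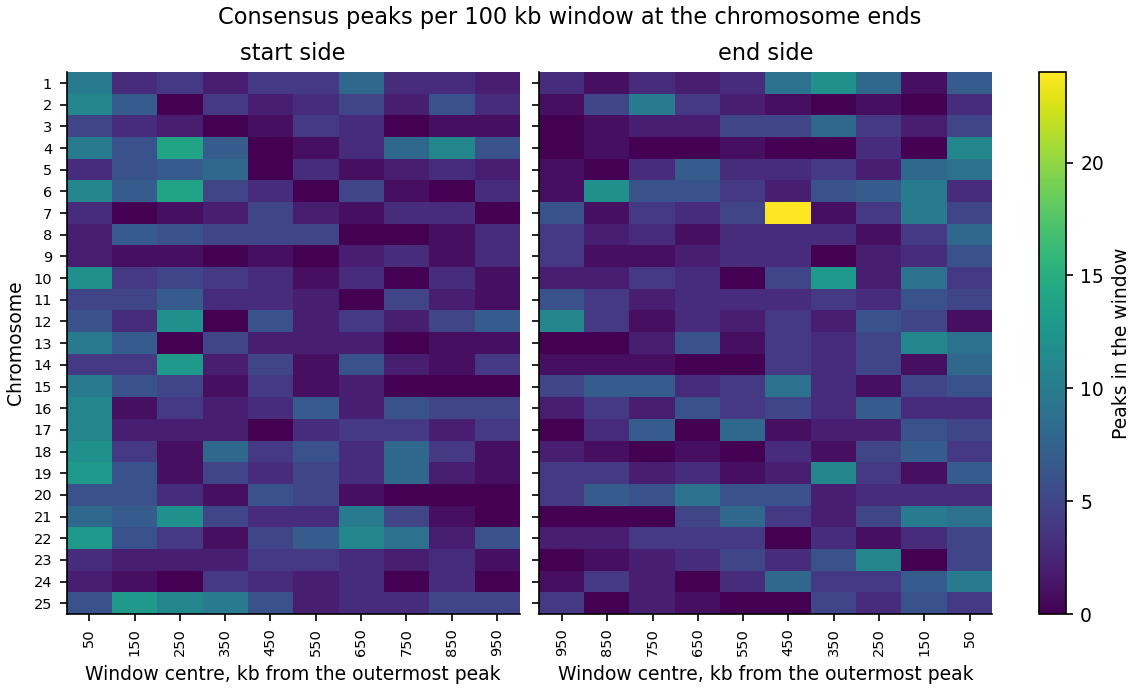
Number of consensus peaks (color) in each window of 100 kb, by chromosome (rows) and by the window's centre in kb from the outermost peak (columns), with start sides on the left and end sides on the right, so that both chromosome ends face outward. The brightest window holds the 24 peaks on the end side of chromosome 7, and 59 of 500 windows are empty.

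Since gaps shrink where peaks are dense, ends and inner bins with like numbers of peaks were set side by side. A total of 35 ends and 282 inner bins held 25 to 49 peaks per Mb, with means of 37.4 and 30.1. Here the share of peaks with a neighbour within 5 kb was 48.5% at the ends and 49.5% in the inner bins. Taken by window, these were 47.9 ± 11.1% and 48.9 ± 12.1% (SD). The difference was smaller than the spread between single windows, which does not give the error of the means. The share in close groups was 12.2 ± 9.28% and 10.5 ± 9.73% by window. The median gap, as a fraction of the mean spacing of its own window, was 0.223 ± 0.101 at the ends and 0.176 ± 0.0884 in the inner bins. A neighbour within 500 bp was found for 15.2% of the peaks at these ends and 11.1% of those in these bins, and none within 50 kb for 3.36% and 5.90%. The median gaps were 5.41 and 5.13 kb. Groups of 4 or more peaks held 3.52% of the peaks at these ends and 4.41% of those in these bins, the opposite order to that of all members (4.34%) and all inner peaks (2.93%). These ends still held more peaks on average than these bins, so the density was like but not equal. The bins were also picked from the dense part of all 1276 inner bins, whose median was 18 peaks. The ends, with a median of 39, were not.

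The widths of members and inner peaks were close. The median width was 322 bp for members, with quartiles of 273 and 406 bp, and 315 bp for inner peaks, with quartiles of 263 and 389 bp. By chromosome, the medians were 323 ± 10.0 bp and 315 ± 3.75 bp (SD, n = 25), higher among members on 19 chromosomes, lower on 5 and equal on 1. The narrowest width of 200 bp, which is the smallest in the list, was found in 65 members (3.40%) and 3.29% of inner peaks. Among the 50 outermost peaks, 5 had this width, and their median was 316 bp.

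The widths differed mainly at the upper end. Of the members, 152 (7.95%) were 600 bp wide or more, against 937 (3.97%) of the inner peaks, and 18 (0.941%) were wider than 1 kb, against 0.271%. By chromosome, the share of peaks of at least 600 bp was 7.95 ± 3.64% among members and 3.88 ± 0.890% among inner peaks (SD, n = 25). It was higher among members on 23 chromosomes and lower on chromosomes 16 (3.53% against 4.41%) and 23 (3.23% against 3.40%). These wide peaks lay mostly in the outer part of the window. They made up 10.5% of the peaks in the first 100 kb, 8.47% from 100 to 250 kb, 9.29% from 250 to 500 kb and 5.62% from 500 to 1000 kb. Further in, they made up 4.99% in the second Mb, 3.85% from 2 to 5 Mb, 4.89% from 5 to 10 Mb and 3.63% beyond 10 Mb. Both sides had them alike, at 8.22% on start sides and 7.66% on end sides. Without the end side of chromosome 7, which alone had 12 of them, the share among members was 7.57%. From 250 to 500 kb, it was then 7.46%, so the rise from 8.47% in the band before to 9.29% came from that end. The 7.46% was still above the 5.62% from 500 to 1000 kb and the 3.97% of inner peaks.

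Wide peaks were more frequent near the ends whether or not a peak had close neighbours. Of members with no neighbour within 2 kb, 78 of 1247 (6.26%) were 600 bp or wider, against 3.27% of such inner peaks. In pairs the shares were 8.73% and 5.14%, and in close groups 15.3% and 8.21%. Among ends and bins with 25 to 49 peaks, the shares by window were 6.91 ± 4.93% and 4.67 ± 4.62% (SD, n = 35 and 282). This difference was smaller than the spread between single windows, which does not give the error of the means.

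The 5 widest members lay on 5 chromosomes, all within the outer 500 kb. The widest, of 4037 bp, was on the end side of chromosome 4 (76320117 to 76324153), 291 kb from the last peak. It formed a close group with peaks of 396 and 1109 bp that followed at 209 and 309 bp, and these were its only neighbours within 50 kb. The next, of 1597 bp, lay on the end side of chromosome 7 (73594502 to 73596098), 485 kb from the end, with 25 other peaks within 50 kb. The others were 1507 bp on the start side of chromosome 22 (119733 to 121239), 1472 bp on the end side of chromosome 23 (46013813 to 46015284) and 1325 bp on the start side of chromosome 15 (509636 to 510960). They had 8, 10 and 4 other peaks within 50 kb, and the gap to the nearest was 7704, 248 and 14386 bp.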

How the data were processed

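The authors deposited the consensus peaks as positions in base pairs. Per the paper and the submitters' notes, paired reads were trimmed with cutadapt 1.9.1, aligned to Zv10 with Bowtie2 2.2.4 and filtered for duplicates, mitochondrial reads and a mapping quality of at least 30, and read ends were shifted for Tn5. MACS2 2.1.1 peaks of fragments up to 130 bp, at an FDR of 5%, were taken per stage from pooled replicates, kept if present in every replicate and merged over wild-type stages. The quality filter removes reads in repeated sequence, which can lower peak counts near chromosome ends, and merging can widen peaks. The authors' analysis gives no signal per library in this list.

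Starts were read as counted from 0, because the smallest width is then 200 bp, and are printed counted from 1. Should they count from 1, printed starts exceed the true ones by 1 and widths fall short by 1 bp. All values were computed in Python 3.11.15, numpy 2.4.6 and pandas 2.3.3 and drawn with matplotlib 3.10.9. The window, group and distance functions were tested on simulated peaks. Inner bins are full 1 Mb bins between the end windows. The members, the definitions and the rule for named regions were chosen with earlier results of these data known. The cutoff of 600 bp for wide peaks was also taken from such earlier work. The regions named are the 5 fullest and 5 emptiest ends, the 5 densest windows with ties, the 5 widest members, the largest close groups and the peaks at the bound, and the end-side stretch of chromosome 4 was added after its values were seen. Other windows, gaps, group sizes, bin sizes and merging were tried as alternatives. Libraries of mutant or α-amanitin-treated embryos were not analysed here. No genome or annotation of Zv10 was used, so no peak is assigned to a gene, no sequence is shown, and GC content, assembly gaps and genes per Mb were not run.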

Additional observations from a re-analysis of the deposited data

How the results depend on the processing

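Of 51 alternative values, 38 stayed within the spread over ends or chromosomes and 13 did not. For the number of members, the bound was 1.5 times, and for the distance of decay 1 step of 100 kb. For the share in groups of 4 or more from 250 to 500 kb, it was 1.5 times. A value for inner peaks existed for 45 of the alternatives, and none of these turned the direction of a difference between members and inner peaks. The 45 include the numbers of members with windows of 500 kb and 2 Mb. There the inner value is the number of remaining peaks, so the direction was fixed in advance. The comparison at like density was not among the alternatives. There the share within 5 kb, the median gap and the share in groups of 4 or more took the opposite order. The shares in close groups, of wide peaks and with a neighbour within 500 bp kept theirs. Staying within the spread is a loose criterion. For the width and the share in close groups, the spread was wider than the difference between members and inner peaks. The share in close groups fell from 12.7% to 7.26% after merging across gaps of up to 500 bp. With group gaps of up to 1 kb, it was 7.89%. Both counted as within the spread, and inner peaks had 4.56% and 2.97%. Most of the 13 values that moved follow from the alternative's own construction. Windows of 500 kb and 2 Mb held 1183 and 3136 members. A neighbour within 2 kb was found for 34.8% of members and within 20 kb for 83.0%. The share in close groups was 34.8% with 2 or more peaks, 4.34% with 4 or more and 26.8% with gaps of up to 5 kb. With 2 or more peaks, it is by definition the share with a neighbour within 2 kb, so that value was counted under both names. The share of wide peaks was 13.9% after merging across gaps of up to 500 bp, 14.1% from 500 bp and 2.40% from 800 bp, against 8.08%, 8.76% and 0.923% of inner peaks. The mean density first fell to the midpoint between the outermost step and the level beyond 5 Mb in the step that ends at 400 kb, but at 150 kb in steps of 50 kb and at 750 kb in steps of 250 kb, so that no single distance of decay is given in the report. The share in groups of 4 or more from 250 to 500 kb was 6.46%, and 3.41% without the end side of chromosome 7. Chosen after seeing the data were leaving out the end side of chromosome 7 or, for the decay, chromosome 25, all alternatives on wide peaks, the windows of 500 kb and 2 Mb for the share within 5 kb and in close groups, and the inner level beyond 5 Mb for gaps and both of these shares. For the density, that inner level had been planned. No paired analysis was possible because the positions carry no values by replicate, so leaving out a replicate was not possible either. The unknown depth of the libraries limits which sites were called, and assembly gaps were not left out of any window.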
